A study of Arabidopsis thaliana with 15 samples.

Results

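The COR and KIN genes are 10 cold-regulated Arabidopsis genes: COR15A (AT2G42540), COR15B (AT2G42530), COR47 (AT1G20440), ERD10 (AT1G20450), RD29A (AT5G52310, also COR78), KIN1 (AT5G15960), KIN2 (AT5G15970, also COR6.6), COR413-PM1 (AT2G15970), COR413IM1 (AT1G29395) and COR413IM2 (AT1G29390). They were picked by identifier, as named cold-regulated genes, and all 10 were found among the 33977 features counted by RNA-seq. All plants were Arabidopsis ecotype Col-0, grown in days of 12 h at 22 °C with no cold treatment named in the sources, and 5 groups of 3 plants were compared. Gen1 memory plants had lost an MSH1-RNAi transgene by segregation and kept the altered phenotype, Gen1 nonmemory plants were their transgene-null full sibs of normal phenotype, and Gen1 WT plants carried no transgene. Gen5 memory plants descended by selfing from a single Gen1 memory plant, through a single plant in each generation, and were set beside Gen5 WT plants. The WT plants came from transformation events negative for the RNAi transgene and were grown alongside the memory plants. The memory and nonmemory plants trace to a single T1 plant, so each describes 1 transformation event. The labels call the tissue whole rosette and the methods whole plants at early bolting. The question was whether these known targets of the CBF transcription factors follow the CBF genes across the 5 groups.

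In the cold, CBF1, CBF2 and CBF3 (the DREB1 factors) are induced within hours and bind the CRT/DRE element, whose core is CCGAC, in the promoters of COR genes. The proteins made are mostly hydrophilic, or span membranes, and are known for protecting membranes and proteins during freezing and drying. Abscisic acid (ABA) acts on several of the same promoters through the ABRE element (core ACGTG), so COR genes can also respond to drought and salt. COR15A and COR15B proteins work in the chloroplast stroma, COR47 and ERD10 are acidic dehydrins, COR413-PM1 lies in the plasma membrane, and COR413IM1 and COR413IM2 lie in the inner envelope of the chloroplast. KIN1 and KIN2 encode very short hydrophilic proteins, and RD29A is the classic reporter of cold and drought signalling.

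The 250 bases before the annotated start are shown for 5 of the genes. COR15A and KIN1 are the genes that were higher in memory plants against Gen1 WT only, RD29A and COR413-PM1 are genes that were higher in memory plants in each comparison, and KIN2 is the near-identical neighbour of KIN1. Sequences are from the RefSeq assembly TAIR10.1, read along the gene's strand, with CCGAC or ACGTG on either strand in capitals.
COR15A promoter (chr2:17712331-17712580, minus strand): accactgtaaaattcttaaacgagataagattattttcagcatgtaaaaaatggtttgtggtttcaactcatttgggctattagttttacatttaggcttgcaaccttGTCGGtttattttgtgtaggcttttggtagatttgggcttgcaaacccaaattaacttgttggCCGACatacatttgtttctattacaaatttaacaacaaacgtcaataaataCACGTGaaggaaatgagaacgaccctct
KIN1 promoter (chr5:5209467-5209716, plus strand): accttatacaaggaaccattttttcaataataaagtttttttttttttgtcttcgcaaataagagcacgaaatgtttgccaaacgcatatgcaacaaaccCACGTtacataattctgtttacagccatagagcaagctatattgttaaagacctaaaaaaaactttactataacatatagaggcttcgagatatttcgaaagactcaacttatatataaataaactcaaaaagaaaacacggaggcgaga
KIN2 promoter (chr5:5211469-5211718, plus strand): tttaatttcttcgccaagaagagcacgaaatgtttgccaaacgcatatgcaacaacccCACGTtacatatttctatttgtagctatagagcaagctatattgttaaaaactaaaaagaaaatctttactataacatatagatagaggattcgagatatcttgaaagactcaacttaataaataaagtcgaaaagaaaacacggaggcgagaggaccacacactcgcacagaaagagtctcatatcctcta
RD29A promoter (chr5:21240467-21240716, plus strand): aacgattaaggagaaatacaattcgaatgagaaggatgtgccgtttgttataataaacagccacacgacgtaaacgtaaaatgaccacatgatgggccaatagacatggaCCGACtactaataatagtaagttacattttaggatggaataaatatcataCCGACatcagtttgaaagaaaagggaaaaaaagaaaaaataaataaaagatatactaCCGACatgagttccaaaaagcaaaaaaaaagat
COR413-PM1 promoter (chr2:6949601-6949850, plus strand): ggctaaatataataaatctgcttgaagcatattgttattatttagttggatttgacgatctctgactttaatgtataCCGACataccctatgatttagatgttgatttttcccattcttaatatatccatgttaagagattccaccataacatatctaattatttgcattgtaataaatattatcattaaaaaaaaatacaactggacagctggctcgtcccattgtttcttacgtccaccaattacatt

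CCGAC lay in this 250-bp window, on either strand, in 3 of the 10 genes, against 12.0% of 27443 promoters of protein-coding genes. RD29A held 3 copies, at 140, 90 and 33 bp before its start. COR15A held 2 copies, at 142 and 79 bp, and COR413-PM1 held 1, at 173 bp, while 1.5% of all promoters held 2 or more. ACGTG lay in the windows of 5 of the 10 genes (COR15A, KIN1, KIN2, COR413IM1 and COR413IM2) against 22.9% of all promoters. In COR15A and COR413IM1 a pair of these ACGTG matches overlap within 1 CACGTG (the G-box). In a window of 1000 bp, CCGAC was found before 8 of the 10 genes, against 37.4% of all promoters, and the exceptions were KIN2 and COR413IM2. The clock-linked evening element AAAATATCT was in 0 of the 10 windows of 250 bp, against 2.4% of all promoters. The window of COR15B overlaps exons of COR15A and that of COR413IM2 overlaps exons of COR413IM1. These matches are letters in a window and not measured binding.

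**Figure D1:**
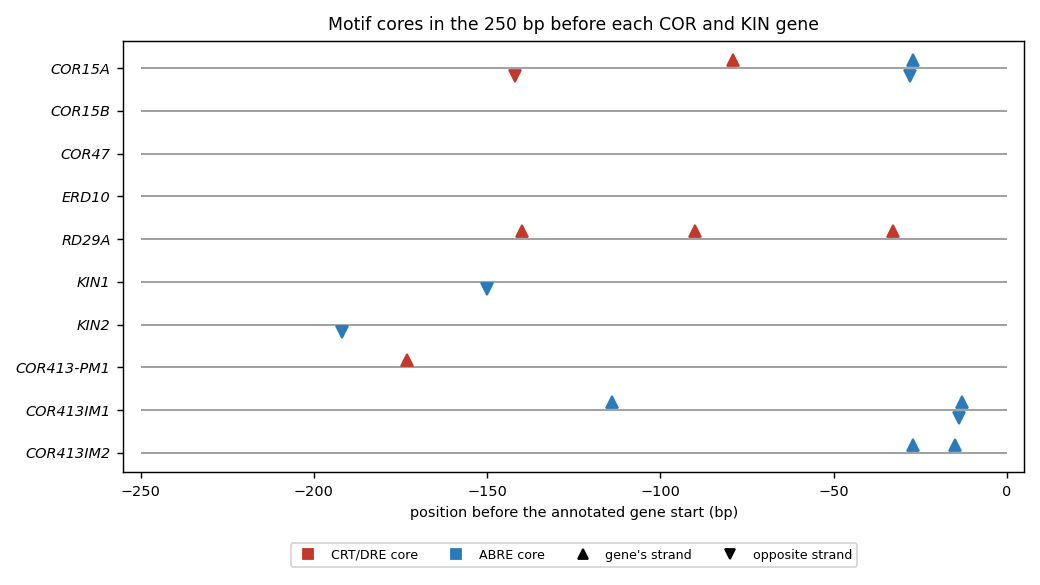
Position of each CCGAC (CRT/DRE core, red) and ACGTG (ABRE core, blue) in the 250 bp before the annotated start of each gene, in bp, with upward triangles on the gene's strand and downward triangles on the opposite strand. RD29A carries 3 CRT/DRE cores and no ABRE core, KIN1 and KIN2 carry 1 ABRE core each, and COR15B (whose window overlaps COR15A exons), COR47 and ERD10 carry neither.

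Of these genes, 8 form 4 tandem pairs with no annotated gene between the partners. In TAIR10.1 COR15A lies on chromosome 2 from 17710441 to 17712330 and COR15B from 17708593 to 17710433, 7 bp away. COR47 (7084409 to 7086873) and ERD10 (7087903 to 7089606) lie on chromosome 1, as do COR413IM1 (10288129 to 10289666) and COR413IM2 (10286067 to 10288103). KIN1 (5209717 to 5210826), KIN2 (5211719 to 5212743) and RD29A (21240717 to 21243644) lie on chromosome 5, and COR413-PM1 lies on chromosome 2 from 6949851 to 6951192. The coding sequences of KIN1 and KIN2 were 95.0% identical, and those of the other pairs were 82.3% (COR47 and ERD10), 83.8% (COR15A and COR15B) and 87.2% (COR413IM1 and COR413IM2) identical. No pair shared a stretch of 150 bases, the length of a read, and the longest shared run was 59 bases. The counts hold uniquely placed reads only, and whether reads of the near-identical pair KIN1 and KIN2 were set aside or split was not tested. COR15B shares exon bases with the neighbouring gene AT2G42520 and COR413IM2 with AT1G29380, and the library kit does not mark the strand, so reads from those stretches cannot be told apart.

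The 15 libraries held 77169986 to 79202824 gene counts each, and the 10 genes had from 192 (KIN1) to 209617 (COR15A) raw counts a plant. Levels are given as normalised read counts, meaning counts scaled by TMM factors (a trimmed mean that sets most genes equal between libraries) to a common library size. MSH1 itself stood at 633 to 917 in the 6 memory plants, 762 to 819 in nonmemory and 652 to 813 in WT plants. Of the defining markers of other organs, the 5 root markers and the 5 seed markers had at most 5 and 6 raw counts in any plant, with 1 and 2 of them at 0 throughout, and the 6 flower markers summed to 50.8 to 83.8 in memory plants and 63.0 to 115 in the others. The 3 leaf markers (RBCS1A, RCA and LHCB1.3) were abundant in every plant and summed to 3372735 to 4194303 in memory plants, above the 2073811 to 2446863 in the others. LHCB1.3 rose in all 3 memory comparisons (log2 1.0, 1.4 and 1.13), RCA against nonmemory and Gen5 WT (0.65 and 0.72, and 0.24 against Gen1 WT), and RBCS1A was called in none (0.15, 0.10 and 0.35). Their part in the results below was not tested. In RNA from whole rosettes, a lower count cannot be assigned to fewer cells of a type or to less RNA in each cell.

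COR15A differed between groups of normal plants. Its normalised count was 21074, 28297 and 36764 in the 3 Gen1 WT plants, and 140087, 154022 and 130562 in Gen1 nonmemory. It was 123648, 148497 and 223359 in Gen1 memory, 129928, 128339 and 124411 in Gen5 WT, and 194270, 155843 and 107600 in Gen5 memory. The 3 Gen1 WT plants therefore stood below all 12 others, and the memory plants of both generations overlapped the nonmemory plants and the Gen5 WT plants. KIN1 had the same shape at a far lower level, with 181, 232 and 243 in Gen1 WT, 1332, 1750 and 860 in Gen1 nonmemory, and 994, 1366 and 4501 in Gen1 memory. In Gen5 it had 929, 1137 and 1767 in WT and 1723, 2191 and 958 in memory. Again only the Gen1 WT plants stood apart, and Gen1 memory plant 3 was the highest plant for both genes.

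RD29A formed 3 tiers. It had 16047, 18804 and 23832 in Gen1 WT, then 38208, 45014 and 34194 in Gen1 nonmemory and 34627, 36925 and 33976 in Gen5 WT. The memory plants had 106354, 125989 and 169520 in Gen1 and 172753, 106458 and 95742 in Gen5. Every memory plant was above every other plant, and Gen5 WT overlapped nonmemory. COR413-PM1 had the same tiers with smaller steps, at 23361, 22648 and 29082 in Gen1 WT, 39279, 35056 and 33042 in Gen1 nonmemory and 36936, 36514 and 33300 in Gen5 WT. Its memory plants had 61425, 71463 and 72474 in Gen1 and 71379, 76237 and 57964 in Gen5.

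ERD10 formed 2 tiers. It had 12982, 13798 and 18268 in Gen1 WT, 16649, 17680 and 17026 in nonmemory and 16219, 16404 and 18730 in Gen5 WT, so these 3 groups overlapped. The memory plants had 31987, 37894 and 45830 in Gen1 and 43751, 46273 and 31136 in Gen5, all above the other 9 plants. KIN2 had 43363, 50236 and 57950 in Gen1 WT, 102758, 90257 and 76706 in nonmemory and 89544, 83467 and 79111 in Gen5 WT. Its memory plants had 112821, 149095 and 146813 in Gen1 and 146719, 172834 and 107455 in Gen5, above all others, and its Gen1 WT plants were below all others.

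Among the remaining genes, COR15B ranged from 7910 to 9835 in Gen1 WT, from 25106 to 31298 in Gen5 WT and nonmemory plants together, and from 33553 to 66180 in memory plants, with no overlap between these 3 sets. COR47 ranged from 14017 to 23349 in Gen1 WT, from 25075 to 30035 in nonmemory and Gen5 WT plants and from 32023 to 55999 in memory plants. COR413IM1 ranged from 9193 to 17524 in Gen1 WT, overlapping the 14772 to 20723 of the nonmemory and Gen5 WT plants, and from 24103 to 45013 in memory plants. COR413IM2 was the flattest of the 10 genes, from 5283 to 6365 in the 9 WT and nonmemory plants and from 6098 to 8015 in the memory plants. In the order of group means, Gen1 WT was lowest for 9 of the 10 genes and the memory groups were the highest pair for all 10. The share of all genes with this order was not counted, so the order cannot be called particular to these genes. The memory groups overlapped each other for every gene. For COR15A, KIN1 and COR413IM2 the lower memory group also overlapped the nonmemory group next below it.

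**Figure D2:**
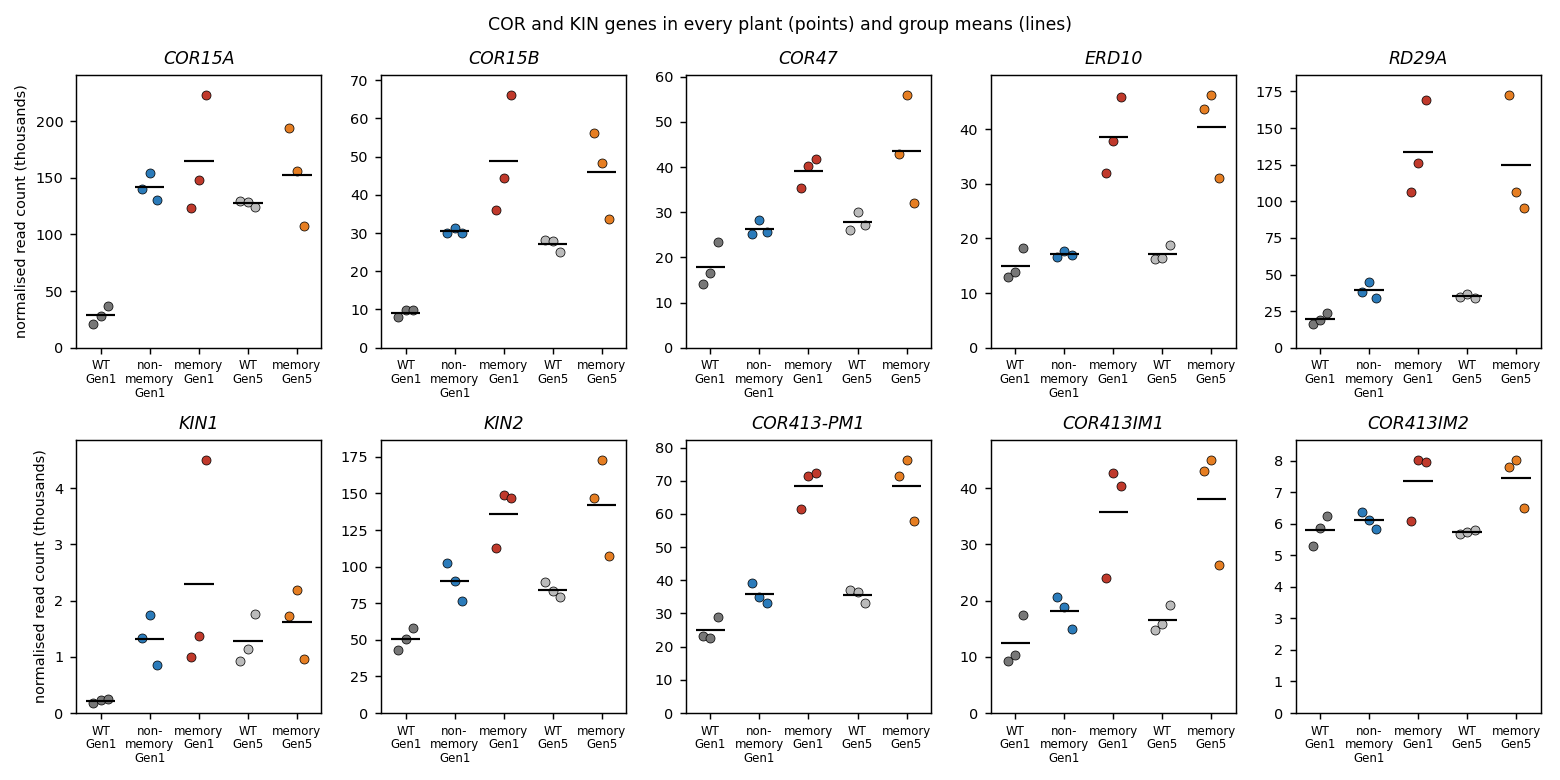
Normalised read count (in units of 1000, axes from 0) of each COR and KIN gene in every plant, by group, with points for plants and lines for the mean of 3 plants. COR15A and KIN1 are low only in Gen1 WT, whereas RD29A and ERD10 are higher in all 6 memory plants than in the other 9 plants.

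In RPKM (normalised counts per kilobase of annotated exon, scaled to library size), KIN2 was the most abundant of the 10 genes in memory plants, at 2318 ± 346 in Gen1 and 2422 ± 560 in Gen5 (SD, n = 3 each). COR15A followed at 1331 ± 418 and 1229 ± 350 RPKM, then COR413-PM1 at 804 ± 71.8 and 805 ± 111, and RD29A at 642 ± 155 and 599 ± 200. KIN1 was lowest, at 35.2 ± 29.7 and 25 ± 9.58 RPKM. In Gen1 WT KIN2 also led, at 859 ± 124 RPKM, followed by COR413-PM1 at 294 ± 41.4 and then COR15A at 231 ± 63.3, and KIN1 was again lowest at 3.36 ± 0.512. This order depends on the TAIR10.1 exon lengths, such as 1584 bp for COR15A and 750 bp for KIN2. Before scaling by length, COR15A averaged 165168 in Gen1 and 152571 in Gen5 memory plants, above KIN2 at 136243 and 142336. The spread between plants was larger in both memory groups than in Gen5 WT for each of the 10 genes. This was not particular to them. Over all genes, chi-square per degree of freedom between the raw counts of plant pairs was 30.7 to 117 within memory groups. It was 12.3 to 36.4 within Gen5 WT. For COR15A the coefficient of variation was 31.4% in Gen1 memory and 28.5% in Gen5 memory against 2.23% in Gen5 WT, but in Gen1 WT it was 27.4%. For RD29A it was 24.1% and 33.4% in the memory groups, 4.40% in Gen5 WT and 20.2% in Gen1 WT.

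Gen1 memory plants were compared with their nonmemory sibs, the closest control. The genes that rose were RD29A, ERD10, COR413IM1, COR413-PM1, COR15B, KIN2 and COR47, which is 7 of the 10, and 0 fell. A gene was called where edgeR's quasi-likelihood test gave an adjusted p under 0.05 and the log2 fold change exceeded 0.5 in either direction, and 23.4% of the 19760 genes tested passed (11.1% higher and 12.2% lower). The 3 memory plants lay clear of the 3 nonmemory plants for 7 of the 10 genes and for 53.1% of all genes. RD29A rose most, by 3.43-fold (log2 fold change 1.78, SE 0.19, adjusted p = 0.000427). ERD10 rose by 2.26-fold (log2 1.18, SE 0.13, adjusted p = 0.0005), COR413IM1 by 1.97-fold (adjusted p = 0.0111) and COR413-PM1 by 1.92-fold (adjusted p = 0.000477). The dehydrin COR47 rose by 1.49-fold (adjusted p = 0.00246), COR15B by 1.61-fold (adjusted p = 0.0299) and KIN2 by 1.52-fold (adjusted p = 0.0146). COR15A did not pass the test, with a log2 fold change of 0.23 (SE 0.21, adjusted p = 0.417), nor did KIN1 with 0.80 (SE 0.55, adjusted p = 0.285) or COR413IM2 with 0.27 (SE 0.11, adjusted p = 0.0881). The median log2 fold change was 0.74 over the 10 genes and 0.01 over all genes tested.

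Of the smaller rises, that of COR47 kept its call in all 6 fits that left out 1 plant (adjusted p at most 0.0159 by edgeR). COR15B passed only in the fit that left out Gen1 memory plant 1. Its log2 fold change was 0.75 without memory plant 2, 0.41 without memory plant 3, and 0.67, 0.71 and 0.68 without nonmemory plants 1, 2 and 3 in turn. KIN2 was lost without memory plant 2 (0.53) and without nonmemory plant 2 (0.61) or 3 (0.50). Without Gen1 memory plant 3 the log2 fold changes of COR15A and KIN1 were -0.05 and -0.15. Scaling to library size alone, with no TMM factors, left 4 of the 10 genes called, and COR15B (0.53), COR47 (0.42) and KIN2 (0.45) were no longer called. That scaling lowered the median log2 fold change of all genes by 0.15 here, by 0.19 in Gen1 memory against WT and by 0.17 in Gen5. It also changed the calls from 2199 higher and 2417 lower to 1474 and 3679 in the nonmemory comparison, from 1889 and 2079 to 1168 and 3627 against Gen1 WT, and from 2637 and 2704 to 1690 and 4054 in Gen5.

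Against Gen1 WT, the rise in Gen1 memory plants took in 9 of the 10 genes, with COR413IM2 the exception (log2 fold change 0.35, SE 0.12, adjusted p = 0.0611). In this comparison 20.0% of 19849 genes tested were called, 9.52% higher and 10.5% lower. The groups did not overlap for 9 of the 10 genes and for 49.8% of all genes. KIN1 rose most, by 10.5-fold (log2 3.39, SE 0.58, adjusted p = 0.00432), with RD29A at 6.90-fold (log2 2.79, SE 0.22, adjusted p = 0.000173) and COR15A at 5.79-fold (log2 2.53, SE 0.28, adjusted p = 0.000689). COR15B rose by 5.36-fold (adjusted p = 0.000362). The membrane proteins COR413IM1 and COR413-PM1 rose by 2.91-fold and 2.76-fold, KIN2 by 2.72-fold, and the dehydrins ERD10 and COR47 by 2.59-fold and 2.20-fold, with adjusted p from 0.000246 to 0.00735. All 9 genes kept the call in each of 6 fits that left out 1 plant, although KIN1 dropped to a log2 fold change of 2.45 in the lowest of them. The median over the 10 genes was 1.5, against -0.01 over all genes tested.

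In Gen5, memory plants were compared with Gen5 WT, a comparison that shares no plant with those in Gen1. It is no independent repeat of the memory event, since the Gen5 memory plants descend from a single Gen1 memory plant. The genes that rose were again RD29A, ERD10, COR413IM1, COR413-PM1, COR15B, KIN2 and COR47, 7 of the 10, where 27.0% of 19800 genes tested were called, 13.3% higher and 13.7% lower. The groups did not overlap for 8 of the 10 genes and for 55.8% of all genes. RD29A rose by 3.58-fold (log2 1.84, SE 0.21, adjusted p = 0.00039), ERD10 by 2.37-fold (log2 1.25, SE 0.15, adjusted p = 0.000515) and COR413IM1 by 2.31-fold (adjusted p = 0.00257). COR413-PM1 rose by 1.94-fold, COR15B and KIN2 by 1.71-fold each and COR47 by 1.58-fold, with adjusted p from 0.000455 to 0.022. COR15A (log2 0.27, SE 0.19, adjusted p = 0.296) and KIN1 (log2 0.35, SE 0.32, adjusted p = 0.419) did not pass, and COR413IM2 passed the p threshold but not that on fold change (log2 0.38, SE 0.09, adjusted p = 0.0121). The median over the 10 genes was 0.77, against 0.01 over all genes tested. COR47 was called only without Gen5 memory plant 3. Its log2 fold change was 0.66 without memory plant 1, 0.43 without memory plant 2, and 0.61, 0.72 and 0.65 without WT plants 1, 2 and 3. It also lost its call with library size alone (0.48).

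**Figure D3:**
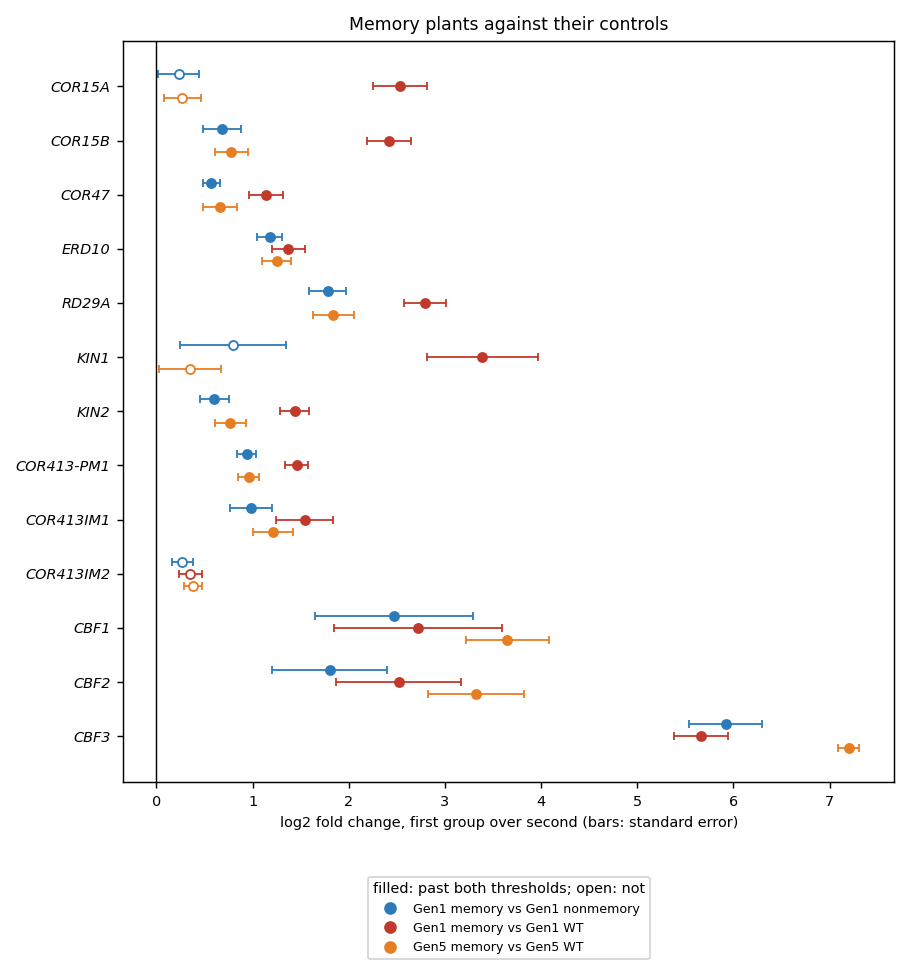
Log2 fold change (with standard error) of the 10 COR and KIN genes and of CBF1, CBF2 and CBF3 in memory plants against each of their controls (nonmemory, then WT of each generation), 3 plants a group, with filled points for genes past both thresholds. RD29A, ERD10 and COR413-PM1 are filled in all 3 comparisons, COR15A and KIN1 only against Gen1 WT, and CBF3 lies farthest to the right, at 5.66 to 7.20.

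The groups of normal phenotype also differed. In Gen1 nonmemory plants 6 of the 10 genes were higher than in Gen1 WT, where 7.71% of 19827 genes tested were called, 2.82% higher and 4.89% lower. The groups did not overlap for 7 of the 10 genes and for 39.9% of all genes. KIN1 was 6.0-fold higher (log2 2.59, SE 0.26, adjusted p = 0.00191), COR15A 4.93-fold (log2 2.30, SE 0.19, adjusted p = 0.00121), COR15B 3.32-fold (log2 1.73, SE 0.09, adjusted p = 0.000492) and RD29A 2.00-fold (log2 1.00, SE 0.16, adjusted p = 0.00699). KIN2 and COR413-PM1 were higher by 1.78-fold and 1.43-fold. COR47 (log2 0.55, adjusted p = 0.0587), COR413IM1 (0.55, adjusted p = 0.141), ERD10 (0.19, adjusted p = 0.32) and COR413IM2 (0.07, adjusted p = 0.509) did not pass. COR47 was called by DESeq2 (adjusted p = 0.00422) and by edgeR with no filter on low counts (adjusted p = 0.0498). COR413-PM1 was not called without nonmemory plant 1 (0.44) or 2 (0.52) or without WT plant 1 (0.47) or 2 (0.45). Without Gen1 WT plant 3, the highest of the 3 WT plants for 9 of the 10 genes, COR47 (0.78) and COR413IM1 (0.89) were called too.

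Gen5 WT stood above Gen1 WT in the same way, with 7 of the 10 genes higher, where 10.7% of 19856 genes tested were called, 4.69% higher and 6.05% lower. The groups did not overlap for 7 of the 10 genes and for 44.0% of all genes. The log2 difference was 2.54 for KIN1 (SE 0.25, adjusted p = 0.000755), 2.15 for COR15A (SE 0.18, adjusted p = 0.000484), 1.55 for COR15B (SE 0.10, adjusted p = 0.00023) and 0.84 for RD29A (SE 0.13, adjusted p = 0.00442). It was 0.73 for KIN2, 0.63 for COR47 and 0.50 for COR413-PM1. The last of these lay at the fold threshold and was lost without Gen1 WT plant 1 (0.46) or 2 (0.43) or without Gen5 WT plant 1 or 2 (0.48 each). COR47 was called only without Gen1 WT plant 3 (0.86), and its other values ran down to 0.48. COR413IM1 was called without Gen1 WT plant 3 (0.76). Both comparisons use the same 3 Gen1 WT plants, so they are not independent of each other, nor of the comparison of Gen1 memory with WT. Generation and growth in a separate sowing cannot be told apart here, since the sources do not say whether the WT plants of both generations were grown side by side.

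Between Gen1 nonmemory and Gen5 WT, 0 of the 10 genes were called by edgeR, with 1 (COR15B) at an unadjusted p under 0.05 and 0 called by DESeq2, where 1.70% of 19750 genes tested were called (0.577% higher and 1.12% lower). The groups did not overlap for 3 of the 10 genes (COR15A, COR15B and COR413IM2) and for 26.0% of all genes. The log2 differences lay from -0.07 (COR47) to 0.17 (COR15B). The mean CBF sum in nonmemory was 4.93 times that in Gen5 WT. Of the 3 CBF genes 2 were called higher, and all 3 log2 differences lay from 1.73 to 2.49. CBF3 lost its call whichever plant was left out, and CBF1 without nonmemory plant 2 or 3 or Gen5 WT plant 1 or 2. Between Gen5 memory and Gen1 memory plants, 0 of the 10 genes were called by edgeR and by DESeq2, with 0 at an unadjusted p under 0.05. There edgeR called 0 of all 19716 genes tested (353 had an unadjusted p under 0.05) and DESeq2 called 6. The memory groups did not overlap for 0 of the 10 genes and for 5.87% of all genes. The log2 differences of the 10 genes lay from -0.49 (KIN1, SE 0.55) to 0.16 (COR47, SE 0.19), and a test that is not passed does not show that the groups were alike.

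**Figure D4:**
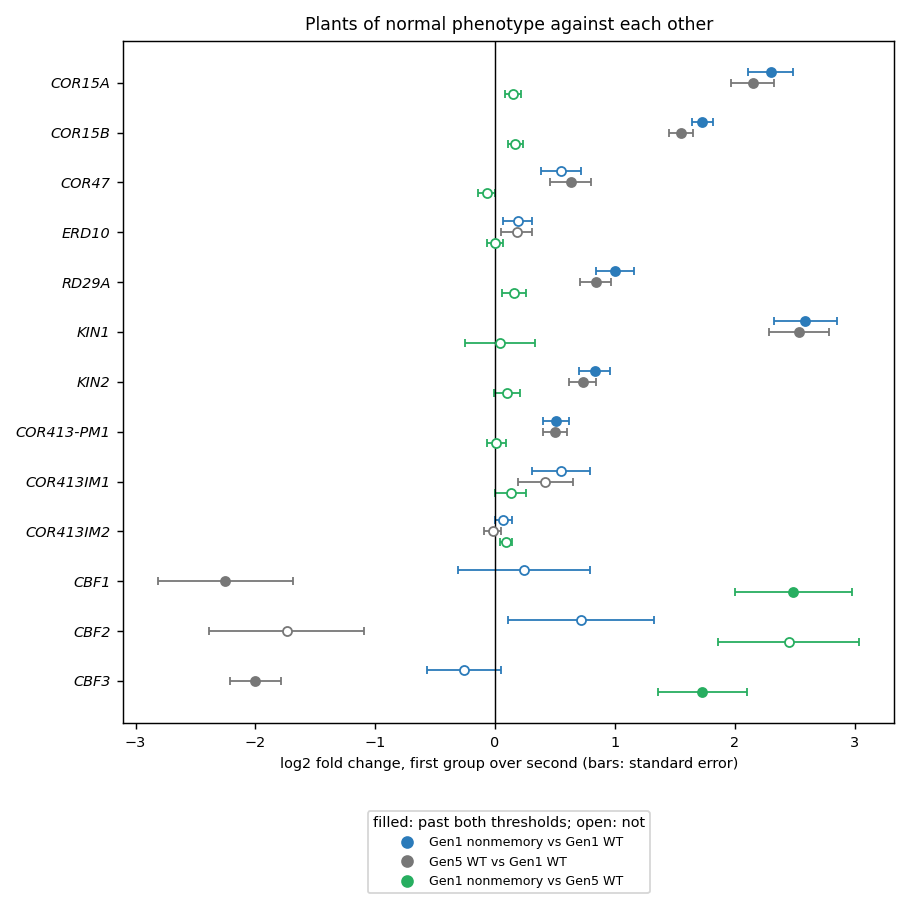
Log2 fold change (with standard error) of the 10 COR and KIN genes and of CBF1, CBF2 and CBF3 between groups of normal phenotype, 3 plants a group, with filled points for genes past both thresholds. COR15A, COR15B and KIN1 lie between 1.55 and 2.59 in both comparisons with Gen1 WT, in which CBF3 lies at -0.26 and -2.0, while the 10 genes lie near 0 between nonmemory and Gen5 WT.

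The difference between the memory effects of the generations was tested by an interaction term over 12 plants, the WT and memory groups of both. It passed for 3 of the 10 genes, where 6.03% of 20195 genes tested passed, 2.65% with a higher and 3.37% with a lower log2 effect in Gen5. The memory effect on COR15A was smaller in Gen5 by 2.27 on the log2 scale (SE 0.36, adjusted p = 0.00423). For COR15B the interaction was -1.65 (SE 0.30, adjusted p = 0.00869) and for KIN1 it was -3.05 (SE 0.71, adjusted p = 0.0257). The memory groups of the 2 generations overlapped for these genes, and the WT groups did not. COR15A and COR15B kept the call in all 12 fits that left out 1 plant. KIN1 lost it in 6 of them: without Gen5 memory plant 1 (-3.09) or 3 (-2.78), without Gen1 WT plant 1 (-2.93) or 2 (-3.10), or without Gen5 WT plant 2 (-3.12) or 3 (-2.74). RD29A had an interaction of -0.95 (SE 0.32, adjusted p = 0.108) and passed without Gen5 memory plant 1 (-1.25). DESeq2 called 6 of the 10 genes, the added genes being RD29A, KIN2 (-0.68) and COR413-PM1 (-0.52).

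The summed normalised count of CBF1, CBF2 and CBF3 was 160, 201 and 404 in Gen1 WT, 159, 368 and 474 in nonmemory, 4111, 2998 and 7103 in Gen1 memory, 87.8, 67.3 and 48.1 in Gen5 WT and 2837, 3292 and 3447 in Gen5 memory, and CBF3 rose by 5.92, 5.66 and 7.20 on the log2 scale in the 3 memory comparisons (adjusted p at most 7.03e-05). CBF1 and CBF2 passed in each memory comparison, narrowly against nonmemory (edgeR adjusted p = 0.0475 and 0.0464), where CBF2 plants overlapped. With single plants omitted, their calls held in 2 and 1 of 6 fits against nonmemory. They held in 2 and 3 of 6 against Gen1 WT and in 6 of 6 each against Gen5 WT. In Gen5 WT, CBF1 (log2 -2.25, adjusted p = 0.0246, lost without Gen5 WT plant 1 or 2 at -2.11 and -2.09) and CBF3 (-2.0, adjusted p = 0.000853) were lower than in Gen1 WT. The CBF sum was thus higher in every memory plant than in every other plant, as were RD29A, ERD10, KIN2, COR413-PM1, COR413IM1, COR15B and COR47. How many of all genes were higher in every memory plant was not counted. The WT groups ran the other way: Gen5 WT had lower CBF sums than Gen1 WT, while COR15A, COR15B, KIN1, RD29A and KIN2 were higher there than in Gen1 WT. The size of the responses differed as well, since the CBF sum was at least 2837 in memory plants and at most 474 in the others, and COR15A overlapped between memory plants and nonmemory plants. CBF3 shares exon bases with AT4G07385, so its counts could include reads of that gene.

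**Figure D5:**
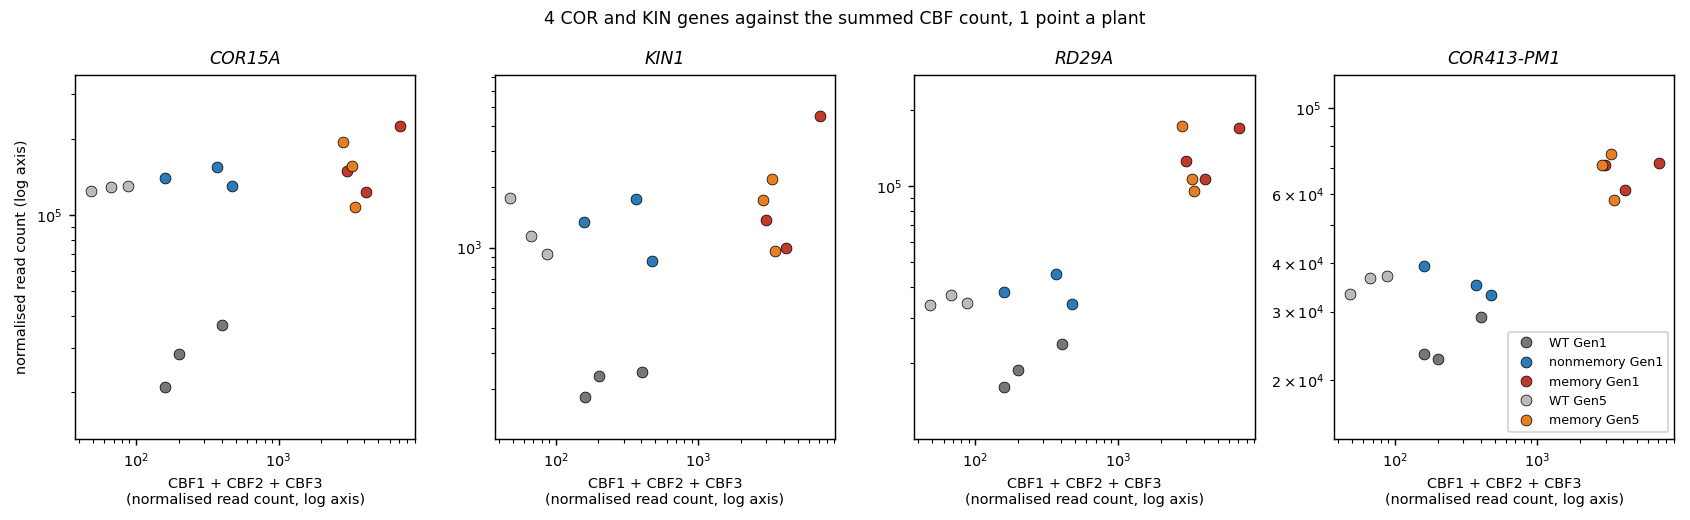
Normalised read count of COR15A, KIN1, RD29A and COR413-PM1 against the summed count of CBF1, CBF2 and CBF3 in each of 15 plants (both axes logarithmic). The 6 memory plants lie at CBF sums of 2837 to 7103 and the others at 48.1 to 474, and the 3 Gen5 WT plants, with the lowest CBF sums, lie above the Gen1 WT plants in all 4 panels.

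Since memory and other plants formed separate clusters in the CBF sum, the relation of each gene to it was computed within the 6 memory plants and within the other 9 plants, on log2 values, and no pooled value is given. None of the 20 relations passed an exact permutation test after adjustment over the 20 (lowest adjusted p = 0.971 for Pearson's r and 1 for Spearman's rho). Among memory plants r lay from -0.11 (COR413IM1) to 0.65 (KIN1, exact permutation p = 0.175, with a rho of 0.09). Without the 2 plants farthest from the median, Gen1 memory plants 1 and 3 (CBF sums 4111 and 7103), all 10 values of r were negative. They lay from -0.96 to -0.19 over 4 plants, so the positive values rested on the 2 plants left out. The 4 plants kept spanned CBF sums of only 2837 to 3447, too narrow to tell whether the genes follow. Among the 9 others r lay from -0.33 (KIN1) to 0.38 (COR413IM2) and rho from -0.47 to 0.43. These values also take in the differences between group means.

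Among the 9 regulators that act on the CBF genes or proteins, 0 rose and 1 fell against nonmemory, and 1 rose and 2 fell in each comparison with WT. The kinase gene OST1 (ABA-activated, and known to stabilise the CBF activator ICE1) fell in all 3 memory comparisons, by 1.3, 0.54 and 1.57 on the log2 scale. With single plants omitted, its call against Gen1 WT survived in 2 of 6 cases and was lost without memory plant 1 (-0.44) or 2 (-0.54) or WT plant 2 (-0.52) or 3 (-0.40). Of 8 further dehydrin genes, 4 or 5 were expressed enough to be tested, and 1, 2 and 2 rose in the 3 comparisons, with 0 lower. LTI30, a cold-induced dehydrin, rose by 1.38, 2.62 and 1.13 on the log2 scale against nonmemory, Gen1 WT and Gen5 WT. Of 3 other COR413 genes, 0 rose in the memory comparisons, and 2, 0 and 2 fell. COR413-PM2 had log2 fold changes of -0.60, -0.35 and -0.72 and AT2G23680 had -0.61, -0.46 and -0.64, and both passed against nonmemory and Gen5 WT and not against Gen1 WT. COR413-PM2 was not called against nonmemory without memory plant 3 (-0.48).

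Of 6 further cold-induced genes, 3, 4 and 5 rose in the 3 memory comparisons, and 1 fell against Gen1 WT. GolS3, a cold-induced galactinol synthase, rose by 4.35, 6.60 and 4.05 on the log2 scale, more than any COR or KIN gene. TIL, a lipocalin of the plasma membrane induced by temperature stress, rose by 0.87, 1.40 and 1.16. Of 8 genes listed for the ABA branch (ABRE-binding factors, ABA-induced genes and DREB2A), 1, 2 and 3 rose and 1, 0 and 1 fell. DREB2A is usually placed outside ABA signalling, so these counts are not of ABA genes alone. It was among the genes that rose against Gen1 WT (log2 1.27, edgeR adjusted p = 0.0106) and did not pass against nonmemory (0.61). In Gen5 it averaged 1129 in memory and 337 in WT plants. ABI5, a bZIP factor of ABA signalling in seeds and seedlings, rose by 0.65, 0.89 and 0.68. With single plants omitted, its call survived in 3 of 6 cases against nonmemory (lost without memory plant 2 or nonmemory plant 1 or 3, at 0.53 to 0.67), in 6 of 6 against Gen1 WT and in 1 of 6 against Gen5 WT (kept only without memory plant 3, otherwise at 0.55 to 0.74). These counts stand beside the background shares of 23.4%, 20.0% and 27.0% for the 3 comparisons.

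The genes most like COR15A over the 15 plants, among 16989 genes averaging at least 100 counts, were BGAL10 (a beta-galactosidase), CHX16 (a cation/proton exchanger family member) and RAP2.9 (an AP2/ERF family factor). Likeness was the root mean square difference of log2 counts, each gene centred on its own mean, and it was 0.454, 0.481 and 0.488. For KIN1 the most similar were LTI30 (0.626), RAP2.9 (0.670) and BGAL10 (0.715). BGAL10 averaged 2211 ± 289 in Gen1 WT, 4991 ± 205 in nonmemory, 4724 ± 246 in Gen5 WT, and 7798 ± 954 and 7944 ± 624 in Gen1 and Gen5 memory (SD, n = 3 each). These genes were picked for likeness over the same plants, so their low level in Gen1 WT came with the choice and is no separate result. RAP2.9, for example, stood at 64.4 ± 12.7 there against 254 ± 20.8 in nonmemory and 235 ± 69.1 in Gen5 WT. Unlike COR15A, BGAL10 and RAP2.9 also passed in memory plants against nonmemory (log2 0.65 and 0.78) and against Gen5 WT (0.76 and 0.95). RAP2.9 lost the call against Gen5 WT without memory plant 2 (0.66) or WT plant 2 (1.05) or 3 (0.73).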

How the data were processed

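RNA of 15 plants (5 groups of 3, labelled as biological replicates) was sequenced as unstranded 150-bp pairs. The authors aligned reads with STAR 2.7.0a in 2 passes, kept uniquely placed reads and counted them per gene with QoRTs; the submitters' processing notes name TAIR10. The deposited values are raw counts per gene, 1 table a plant. Rows naming no gene (0.879% to 1.081% of counts) were left out, organelle genes had a count of 0, and gene totals were 77169986 to 79202824.

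Group differences were tested over all genes with edgeR 4.0.16 in R 4.3.3 (TMM factors, the default filterByExpr, the quasi-likelihood F test and p-values adjusted after Benjamini and Hochberg) on the 6 plants compared. The study's thresholds were used (adjusted p under 0.05, log2 fold change beyond 0.5 in either direction), and for the interaction, on 12 plants, the adjusted p alone. The p-values measure the spread between plants of a line. The fit was tested on simulated data. Levels are TMM-scaled counts, with factors from all 15 plants, and log2 levels used a pseudocount of 1. Relations to the CBF sum used all 720 orderings of 6 plants and all 362880 of 9. Figures used matplotlib 3.10.9 and Python 3.11.15.

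The study's methods used DESeq2, which is here an alternative (1.42.0). Other alternatives were RLE factors, the filter left out, a minimum of 10 counts per plant, a log2 fold change over 1, an adjusted p under 0.01, all 15 plants in 1 fit, a replicate block, and each plant left out in turn. Library size alone, without TMM factors, was chosen after seeing the data. All 10 genes passed the expression filter in every comparison. The 10 genes and the pathway and marker lists were chosen with earlier results of these data known. Named beside them were CBF1 to CBF3, in each pathway list the genes called in all 3 memory comparisons or else the 2 with the largest mean absolute change, and the 3 genes most like COR15A and KIN1. Positions and sequences come from RefSeq TAIR10.1 (66 of 66 listed identifiers matched), since the count tables hold no coordinates. Replicate libraries differed beyond counting noise. Methylation and small RNA data were not analysed here.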

Additional observations from a re-analysis of the deposited data

Results flagged for a closer look

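The memory effect against WT differed between the generations (edgeR interaction, Gen5 minus Gen1, on the log2 scale) for COR15A (-2.27, from 2.53 in Gen1 to 0.27 in Gen5), COR15B (-1.65, from 2.42 to 0.78) and KIN1 (-3.05, from 3.39 to 0.35). Among the other genes named, it was smaller in Gen5 for GolS3 (-2.56, from 6.60 to 4.05), CHX16 (-1.79, from 2.19 to 0.40), LTI30 (-1.49, from 2.62 to 1.13), RAP2.9 (-1.81, from 2.76 to 0.95) and BGAL10 (-1.08, from 1.83 to 0.76). The memory effect on OST1 was more negative in Gen5 (-1.03, from -0.54 to -1.57), and that on CBF3 was larger (1.53, from 5.66 to 7.20). OST1 averaged 1068 in Gen1 and 1226 in Gen5 memory plants, against 1570 and 3660 in WT. CBF3 averaged 3647 and 2667 in memory plants, against 72.5 and 18.2 in WT. Over these 10 genes the adjusted p lay from 0.000692 (CHX16) to 0.0257 (KIN1). With single plants omitted CBF3 passed in 6 of 12 cases, and it lost the call without Gen1 memory plant 1, without Gen1 WT plant 1 or 2, or without any 1 of the 3 Gen5 WT plants, with values from 1.46 to 1.6. GolS3, OST1 and LTI30 were named for their calls in the memory comparisons, and CHX16, RAP2.9, BGAL10 and LTI30 for their likeness to COR15A or KIN1 over the same plants, so their differences are no independent result.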

How the results depend on the processing

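The sign of every call on the 10 genes held under all alternatives run. With RLE factors or all 15 plants in 1 fit, 80 of 80 gene-by-comparison calls were the same, and with the filter left out or a minimum of 10 counts per plant 79 of 80 were. A log2 fold change over 1 left 2 genes called in Gen1 memory against nonmemory, where 9.12% of all genes tested were called. It left 3 each in Gen5 memory against WT (11.2% of all genes), nonmemory against Gen1 WT (2.60%) and Gen5 WT against Gen1 WT (3.40%). An adjusted p under 0.01 left 4 in Gen1 memory against nonmemory (17.4% of all genes), as did library size without TMM factors (4, with 26.1% of all genes). DESeq2 called 6 in the interaction, against 3 by edgeR, where 10.1% and 6.03% of all genes were called. The cause was not tested beyond the thresholds themselves. Over all genes, DESeq2 called 630 against 336 between nonmemory and Gen5 WT and 2038 against 1217 in the interaction.

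With each plant left out in turn, the count of called genes ran from 5 to 7 in Gen1 memory against nonmemory, from 9 to 9 against Gen1 WT, from 6 to 7 in Gen5 memory against WT, from 5 to 8 in nonmemory against Gen1 WT, from 5 to 8 in Gen5 WT against Gen1 WT, and from 2 to 3 in the interaction. It stayed at 0 to 0 between nonmemory and Gen5 WT and between the memory groups. In the same fits 19.4% to 24.3% of all genes were called in Gen1 memory against nonmemory and 16.0% to 20.4% against Gen1 WT. The share was 22.7% to 27.6% in Gen5 memory against WT and 4.58% to 9.37% in nonmemory against Gen1 WT. It was 8.36% to 11.9% in Gen5 WT against Gen1 WT and 3.41% to 6.59% in the interaction. With deviations from group means, 0 of the 20 relations to the CBF sum passed (lowest adjusted p = 0.715, permutation over all plants of a set). Deviations within a group sum to 0 and were permuted across groups, so these p-values are approximate. Among the 9 WT and nonmemory plants these r lay from -0.26 (KIN1) to 0.61 (COR47) and were positive for every gene but KIN1. Among the 6 memory plants they lay from -0.05 (COR413IM1) to 0.67 (KIN1).

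The sources do not say whether same-numbered plants share more than a number. Their deviations from group means correlated from -0.369 to 0.523 over 16999 genes, with no comparison over 0.1 in all 3 pairs. With the replicate block 7, 9, 7, 7, 7, 0 and 0 genes were called in the 7 comparisons and 3 in the interaction, the change being COR47 (log2 0.59) in nonmemory against Gen1 WT. The shares of all genes called were 22.4%, 20.8%, 25.4%, 7.38%, 12.1%, 0.830% and 0%, and 6.13% in the interaction.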
